A study of Mus musculus with 10 samples.

Results

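The hexamer CACGTG is a palindromic E-box with a CG dinucleotide at its centre. Of the 32896 8-mers scored on the arrays, each merged with its reverse complement, 26 hold this hexamer, and all 26 were measured on all 10 arrays. They were chosen by sequence alone. In 16 of them both flanking bases lie on the same side of the hexamer, written here as CACGTG followed by the flank, and in 10 a single base lies on each side. The latter include 4 palindromes.

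The series measured protein binding to double-stranded DNA probes on microarrays. CREB1 and the mutants CEBPB(V285A) and CREB1(A297V), all from mouse, were used as DNA-binding domains fused to GST and made by cell-free expression, so full-length proteins, partner proteins and chromatin were not part of the assay. Arrays were left without methylation or given 3 h of M.SssI, an enzyme that methylates the cytosine of CG dinucleotides on both strands. All 3 proteins were bound to unmethylated DNA and the 2 mutants also to methylated DNA, which gives 5 groups of 2 arrays. CREB1 on methylated DNA and wild-type CEBPB were not analysed here. The labels do not say whether the 2 arrays of a group used separate protein preparations, so the p-values reflect only array-to-array spread, which can be technical.

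Proteins of the bZIP family bind DNA as dimers through a pair of basic regions, each of which contacts a half-site in the major groove. CREB1 is known for the cAMP response element TGACGTCA, in which 2 TGAC half-sites meet at a shared CG. The E-box CACGTG has the same central ACGT and is known mainly as a target of basic helix-loop-helix proteins such as MYC, MAX and USF1, and, in plants, as the G-box bound by bZIP factors. Methylation of its central CG is known to hinder binding by MYC.

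The sequences below are those on which the results turn. The 4 palindromes differ in the flanking base. The next pair were the highest and lowest members on CREB1, and the next pair had the largest called differences in methylation response. The 4 probes are bound E-box probes with a second sequence beside the E-box. The name CEBPB(V285A) probe marks a higher level on that protein, not a lack of signal on the others. All are read from the deposited files, 5′ to 3′, with CACGTG in capitals.
T-flanked palindrome: tCACGTGa
A-flanked palindrome: aCACGTGt
C-flanked palindrome: cCACGTGg
G-flanked palindrome: gCACGTGc
highest member on CREB1: CACGTGac
lowest member on CREB1: CACGTGgg
AT-rich flank: CACGTGta
TG flank: CACGTGtg
probe bound by all 3 proteins, hexamer at base 5: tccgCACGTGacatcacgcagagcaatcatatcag
probe bound by all 3 proteins, hexamer at base 22: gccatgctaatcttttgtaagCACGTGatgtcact
CEBPB(V285A) probe, hexamer at base 26: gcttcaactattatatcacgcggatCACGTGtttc
CEBPB(V285A) probe, hexamer at base 6: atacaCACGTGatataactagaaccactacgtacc

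On unmethylated DNA, CREB1 and CEBPB(V285A) bound E-box 8-mers weakly but above the array background, and CREB1(A297V) bound them least. Levels are given as Z, the median log2 signal of the probes that hold an 8-mer, centred on all 8-mers of the array and divided by their spread. The median Z of the 26 members was 3.00 and 3.96 on the 2 CREB1 arrays, 3.10 and 3.05 on the CEBPB(V285A) arrays, and 0.513 and 1.08 on the CREB1(A297V) arrays. On methylated DNA it was 1.66 and 1.55 for CEBPB(V285A) and 0.950 and 0.952 for CREB1(A297V). The CREB1(A297V) arrays therefore lay below all arrays of the other proteins in each methylation state.

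The share of members with a mean Z of 3 or more was 65.4% on CREB1 (17 of 26), against 2.69% of all 8-mers. It was 50% (13 members) on CEBPB(V285A), against 3.50%, and 3.85% (1 member) on CREB1(A297V), against 1.68%. On methylated DNA 7 members (26.9%, against 3.28%) reached this level on CEBPB(V285A) and 2 (7.69%, against 2.90%) on CREB1(A297V). Most E-box 8-mers were thus among the better bound 8-mers of CREB1 without being its best targets: 25 of 26 lay in the top 5%, 2 in the top 1%, and the best ranked 129. In signal, the members' median lay 1.43-fold above the array median on CREB1, 1.54-fold on CEBPB(V285A) and 1.06-fold on CREB1(A297V). On methylated DNA these values were 1.33-fold for CEBPB(V285A) and 1.15-fold for CREB1(A297V).

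CACGTGAC, whose flank completes the half-site TGAC of CREB1, had the highest mean Z of the members in all 5 groups. Its Z was 7.58 and 8.13 on CREB1, 9.58 and 7.94 on CEBPB(V285A) and 2.00 and 4.05 on CREB1(A297V). On methylated DNA it was 5.68 and 6.31 for CEBPB(V285A) and 3.25 and 4.18 for CREB1(A297V). The arrays of CREB1 and CEBPB(V285A) overlapped, and both unmethylated CREB1(A297V) arrays lay below them. Only 12 of the 32 probes of CACGTGAC held none of 5 other bZIP cores on either strand. These are TGACG of the cAMP response element, TTACG of the palindrome TTACGTAA, TTGCG with TTGCA as C/EBP half-sites, and TGACT of AP-1 sites. Over those 12 probes the mean Z was 5.65 on CREB1, 6.86 on CEBPB(V285A) and 2.58 on CREB1(A297V).

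TCACGTGA, the palindrome flanked by T and A, was the second highest member on unmethylated DNA for all 3 proteins. Its Z was 5.19 and 6.58 on CREB1, 6.14 and 6.31 on CEBPB(V285A) and 2.45 and 2.81 on CREB1(A297V). On methylated DNA it was 3.89 and 4.12 for CEBPB(V285A) and 2.41 and 2.55 for CREB1(A297V). No array of CREB1(A297V) reached those of the other proteins. ACACGTGT reached 4.06 and 5.54 on CREB1 and 4.62 and 4.25 on CEBPB(V285A), but -0.105 and 1.38 on CREB1(A297V). CCACGTGG, the form flanked by C and G, reached 3.10 and 3.92 on CREB1, 3.80 and 3.18 on CEBPB(V285A), and 0.261 and -0.102 on CREB1(A297V). GCACGTGC reached 3.28 and 4.21 on CREB1, 2.60 and 2.38 on CEBPB(V285A), and 1.16 and 0.856 on CREB1(A297V). On CREB1 the arrays of the form with T overlapped with those of the form with A, those with A overlapped with those with G, and those with G overlapped with those with C. Palindromic 8-mers rest on 16 to 18 probes each and the other members on 31 to 36. Only 10 of the 16 probes of TCACGTGA held none of the 5 other cores. Over those its mean Z was 4.90 on CREB1, 4.96 on CEBPB(V285A) and 2.00 on CREB1(A297V). ACACGTGT, with 17 such probes of 18, had 5.18, 4.93 and 0.610. The lead of TCACGTGA over ACACGTGT on CREB1 and CEBPB(V285A) was thus not kept without those probes.

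At the low end, CACGTGGG gave 1.89 and 1.69 on CREB1, 1.51 and 0.904 on CEBPB(V285A), and -0.0372 and -0.430 on CREB1(A297V). It was the lowest member in all groups except CREB1(A297V) on unmethylated DNA, where CACGTGCA was lowest with -1.15 and -0.415. Among the 16 members with both bases on the same side, a C in the second flank position went with the highest median Z (4.24 on CREB1, 3.98 on CEBPB(V285A)) and a G with the lowest (2.76 and 2.35). Each of these medians covers 4 8-mers, and CACGTGAC is among those with C. For the base next to the hexamer, the 4 members with A had a median Z of 3.78 on CREB1 and 3.71 on CEBPB(V285A), and those with C 3.01 and 2.42. On methylated DNA the members with A and T kept a median of 2.88 and 2.30 on CEBPB(V285A), against 0.930 with C and 1.70 with G.

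The order of the members was only partly resolved by 2 arrays. Of 25 pairs of neighbours in the order of mean Z, both arrays of the higher member exceeded both of the lower in 3 pairs on CREB1, 3 on CEBPB(V285A) and 2 on CREB1(A297V), and on methylated DNA in 5 for CEBPB(V285A) and 6 for CREB1(A297V). For CREB1 the separated neighbours were CACGTGAC over TCACGTGA, CACGTGCT over ACACGTGA, and CACGTGCC over CACGTGGG. Over the 26 members the mean Z of CEBPB(V285A) correlated with that of CREB1 at a Pearson r of 0.950 and that of CREB1(A297V) at 0.802. Between replicate arrays the r was 0.912 (CREB1), 0.951 (CEBPB(V285A)) and 0.740 (CREB1(A297V)). These correlations are descriptions over 8-mers that share probes and arrays.

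TCACGTGA was bound less than TGACGTCA in all 5 groups. From TCACGTGA to TGACGTGA 1 side of the E-box changes to the TGAC half-site of CREB1, and TGACGTCA has that half-site on both sides. On CREB1 the arrays gave 5.19 and 6.58 for TCACGTGA, 7.23 and 9.92 for TGACGTGA and 29.1 and 32.5 for TGACGTCA. On CEBPB(V285A) they gave 6.14 and 6.31, then 10.1 and 9.65, then 23.3 and 23.1. The arrays of these 3 8-mers did not overlap on either protein, and the step to a second TGAC was larger than the step to the first. On CREB1(A297V) TGACGTGA, at 0.847 and 2.68, overlapped with TCACGTGA, while TGACGTCA reached 12.7 and 16.4. On methylated DNA the mean Z was, in the same order, 4.01, 8.17 and 18.9 for CEBPB(V285A), and 2.48, 4.17 and 21.6 for CREB1(A297V).

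Lists with a single base of the hexamer replaced had lower medians on CREB1, TACGTG excepted. The 26 8-mers with CACGTG had a median Z of 3.31 on CREB1. Of the 9 single substitutions, each with 48 8-mers, TACGTG had a median of 4.86, GACGTG of 2.62, AACGTG of 1.86 and CGCGTG of 1.37. The other 5 had medians between -0.942 for CAGGTG and 0.300 for CATGTG. The 3 lists changed at the first base thus kept medians above 1, that of TACGTG above that of CACGTG itself, while the 3 changed at the third base, which removes the CG, had medians of 0.300 or less. The order of these was the same on CEBPB(V285A), with 4.87 for TACGTG, 3.07 for CACGTG, 2.22 for GACGTG and 0.410 for CATGTG. On methylated DNA the median for CACGTG was 1.58 on CEBPB(V285A) and 1.00 on CREB1(A297V), and for CATGTG, which holds no CG, it was 0.496 and 0.627.

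E-boxes with other centres had lower medians on CREB1 and CEBPB(V285A). The 26 8-mers with CAGCTG, the E-box known as a target of muscle factors such as MYOD, had a median Z of -0.513 on CREB1, -0.185 on CEBPB(V285A) and -0.669 on CREB1(A297V). Those with CATATG had medians of 1.06, 1.13 and 0.848. Among palindromes centred on ACGT the median of CACGTG lay between those of TACGTA, with a median Z of 7.64 on CREB1, and AACGTT, with 2.04, while GACGTC, the core of the cAMP response element, had a median of 2.56 and a range from -0.960 to 30.8. The GACGTC list thus held far stronger and also weaker 8-mers than the E-box list, whose range on CREB1 was 1.79 to 7.86.

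Between CEBPB(V285A) and CREB1, 1 of the 26 E-box 8-mers differed beyond the spread between arrays. The median difference in Z, CEBPB(V285A) minus CREB1, was -0.197, with 18 members lower and 8 higher. With limma and Benjamini-Hochberg adjustment over all 8-mers, no member was called higher, against 3.67% of all 8-mers, and 1 was called lower, against 2.53%, while 4 had an unadjusted p below 0.05. The called member was GCACGTGC, with a difference of -1.25 ± 0.349 (SE; adjusted p = 0.0388). The difference was 0.904 for CACGTGAC (95% interval -0.836 to 2.64) and 0.335 for TCACGTGA (-0.834 to 1.503), so for these 8-mers differences of more than 1 Z unit are within the error. The unmethylated CEBPB(V285A) arrays carry an identifier of their own, and those of CREB1 and CREB1(A297V) share another, so protein and identifier cannot be told apart in this comparison.

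The call of GCACGTGC was lost without the second CREB1 array (2 members were called without the first), either unmethylated CEBPB(V285A) array or any of the 4 methylated arrays, and under 6 of 10 other settings. The sign of the median difference turned to 0.363 without the second CREB1 array. It also turned when the authors' deposited table of Z-scores was used (0.182), with signal over background (0.138) and without division by the array's spread (0.107), while the count of calls was 7 lower after normexp background correction and 6 higher without the division.

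All 26 E-box 8-mers had a lower Z on CREB1(A297V) than on CREB1. The count of members called lower by limma was 26, against 10.8% of all 8-mers, and the count called higher was 0, against 8.13%. All 26 had an unadjusted p below 0.05. The median difference was -2.75, with a range of -4.83 to -1.66, while the median over all 8-mers was 0.0221. CACGTGAC had a difference of -4.83 ± 0.832 (adjusted p = 0.000569), ACACGTGT of -4.16 ± 0.550 (adjusted p = 5.92e-05), CACGTGCA of -3.44 ± 0.392 (adjusted p = 2.17e-05) and TCACGTGA of -3.26 ± 0.558 (adjusted p = 0.000554). The palindromes CCACGTGG and GCACGTGC had differences of -3.43 ± 0.379 (adjusted p = 2e-05) and -2.73 ± 0.349 (adjusted p = 4.42e-05). The member with the smallest difference was CACGTGCT, at -1.66 ± 0.394 (adjusted p = 0.00631), with Z values of 4.06 and 4.23 on CREB1 and 2.19 and 2.77 on CREB1(A297V). In every alternative 24 to 26 members were called lower, and 24 were called when only the 4 arrays of these groups, which share an identifier, entered the fit.

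Calls in this direction were not limited to the E-box and varied between the other hexamer lists. Among palindromes with a central ACGT, 25 of 26 8-mers with GACGTC, 20 of 26 with TACGTA and 10 of 26 with AACGTT were called lower on CREB1(A297V) than on CREB1. Of the substitutions that keep ACGT, the counts were 47 of 48 for GACGTG, 46 of 48 for TACGTG and 41 of 48 for AACGTG. Those that keep the CG without ACGT had 34 of 48 for CGCGTG, 15 of 48 for CTCGTG and 7 of 48 for CCCGTG, the last with 2 called higher. The counts for the lists without a CG were 2 of 26 for CAGCTG, 2 of 26 for CATATG, 5 of 48 for CAAGTG, 5 of 48 for CAGGTG with 2 called higher, and 4 of 48 for CATGTG with 4 called higher. Signal spanned the smallest range on the unmethylated arrays of CREB1(A297V), where the highest 8-mer exceeded the array median by 2.79 and 2.68 on the log2 scale, while it did so by 4.73 to 6.05 elsewhere. Its part in the result was not tested.

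The mutants differed on nearly all members when compared directly on unmethylated DNA. CEBPB(V285A) had the higher Z for 24 of 26 members by limma, against 14.1% of all 8-mers, and the lower for 0, against 11.5%, with 25 at an unadjusted p below 0.05. The median difference was 2.63. CACGTGAC had a difference of 5.73 ± 0.832 (adjusted p = 8e-05), ACACGTGT of 3.80 ± 0.550 (adjusted p = 7.96e-05), TCACGTGA of 3.59 ± 0.558 (adjusted p = 0.000152) and CCACGTGG of 3.41 ± 0.379 (adjusted p = 8.71e-06). GCACGTGC had a smaller difference of 1.480 ± 0.349 (adjusted p = 0.00452), which was not called without the first CEBPB(V285A) array (adjusted p = 0.0561). CACGTGCT (0.813, 95% interval -0.0101 to 1.64) and CACGTGCC were not called. Leaving out 1 array gave 21 to 25 calls. Here too protein and identifier cannot be told apart.

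CEBPB(V285A) had a lower Z on E-box 8-mers on methylated than on unmethylated DNA. All 26 differences in Z, methylated minus unmethylated, were negative, with a median of -1.35 and a range of -2.76 to -0.283. The array spread that divides Z was larger on the methylated arrays (0.253 and 0.265 in log2) than on the unmethylated ones (0.206 and 0.200). In fold over the array median, ACACGTGA rose from 1.82 to 1.94, CACGTGAA from 1.49 to 1.58 and CACGTGTC from 1.74 to 1.77. The fold of all other members fell. The limma fit called 14 members lower, against 3.73% of all 8-mers, and 0 higher, against 3.84%, and 22 had an unadjusted p below 0.05. CACGTGAC went from 9.58 and 7.94 to 5.68 and 6.31, a difference of -2.76 ± 0.832 (adjusted p = 0.0484). CCACGTGG went from 3.80 and 3.18 to 1.74 and 1.08, a difference of -2.08 ± 0.379 (adjusted p = 0.00428). TCACGTGA went from 6.14 and 6.31 to 3.89 and 4.12, a difference of -2.22 ± 0.558 (adjusted p = 0.0227). The methylated and unmethylated arrays did not overlap for any of these 8-mers. After normexp the difference of TCACGTGA was -0.937 and was not called (adjusted p = 0.305). GCACGTGC went from 2.60 and 2.38 to 0.729 and 0.527, a difference of -1.86 ± 0.349 (adjusted p = 0.00489), also without overlap. The call held in 4 of 10 other settings for CACGTGAC, 5 for TCACGTGA, 9 for GCACGTGC and 10 for CCACGTGG.

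CACGTGCT fell from 3.17 and 3.41 to 1.07 and 1.12, by 2.20 ± 0.394 (adjusted p = 0.00387). CACGTGCG, the member with 2 CG dinucleotides, fell by 1.52 ± 0.399 (adjusted p = 0.0272), close to the median of the list. Of the members that were not called, CACGTGAA had the smallest difference, -0.283 (95% interval -1.09 to 0.520). The other lists with a CG in the hexamer were mixed. The counts called lower were 17 of 26 with TACGTA, 12 of 26 with GACGTC and 1 of 26 with AACGTT, which also had 1 higher. They were 27 of 48 with GACGTG, 26 of 48 with TACGTG and 18 of 48 with AACGTG. They were 5 of 48 with CGCGTG, 2 of 48 with CCCGTG and 1 of 48 with CTCGTG, the latter pair with 2 and 1 called higher. Among lists without it, 1 of 26 with CAGCTG, 0 of 26 with CATATG and 1 of 48 with CATGTG were called lower, and 2, 2 and 4 higher. For CAAGTG and CAGGTG 0 of 48 were called lower, and 5 and 12 higher.

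The count of 14 depended on single arrays. It was 0 without the first unmethylated CEBPB(V285A) array, 6 without the second, 2 and 1 without either methylated CEBPB(V285A) array, and 8 and 9 without either methylated CREB1(A297V) array. It was also 9 from the authors' deposited table, 8 with signal over background, 5 after normexp and 3 without spatial correction, and no setting called a member higher. The methylated arrays carry an identifier of their own, so methylation and that identifier cannot be told apart.

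On CREB1(A297V) the members did not move one way on methylation. The median difference in Z was 0.118, with 14 members higher and 12 lower. This split depends on the scale. The array spread that divides Z was larger on the methylated arrays (0.199 and 0.197 in log2) than on the unmethylated ones (0.146 and 0.112). In fold over the array median, CACGTGCT, CCACGTGC, CACGTGGG, GCACGTGC, CCACGTGG and CACGTGCG fell and all other members rose. TCACGTGA, lower in Z, rose from 1.26 to 1.41 in fold. By limma 6 were called higher, against 10.4% of all 8-mers, and 1 lower, against 11.1%, and 11 had an unadjusted p below 0.05. Lists without a CG in the hexamer also held calls. The counts called higher were 27 of 48 for CAGGTG, 15 of 48 for CATGTG and 11 of 48 for CAAGTG. They were 5 of 26 for CAGCTG and 3 of 26 for CATATG, and 0 or 1 was called lower in each. Among lists with ACGT, 3 of 26 with AACGTT, 2 of 26 with TACGTA and 1 of 26 with GACGTC were called higher. CACGTGTA rose from 0.378 and 1.84 to 2.62 and 3.38, a difference of 1.89 ± 0.538 (adjusted p = 0.0175). CACGTGTG rose from -0.750 and -0.0550 to 0.984 and 1.32, a difference of 1.55 ± 0.394 (adjusted p = 0.00943). ACACGTGT rose from -0.105 and 1.38 to 2.62 and 1.79, a difference of 1.57 ± 0.550 (adjusted p = 0.0482). It was 0.736 without probes that hold other bZIP cores (adjusted p = 0.446) and 0.823 without the first unmethylated CREB1(A297V) array (adjusted p = 0.367). The member called lower was CACGTGCT, from 2.19 and 2.77 to 1.72 and 0.967, a difference of -1.14 ± 0.394 (adjusted p = 0.0450), a member that was also among the 14 called lower on CEBPB(V285A). The arrays did not overlap for any of these 4 8-mers.

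Of the 6 called higher, 4 belong to the 8 members that hold CACGTGT. The median difference was 1.30 over those 8 and -0.0961 over the other 18. This grouping was not planned, and the members share probes, so these medians are descriptions. The count of 7 became 0 without the second methylated CREB1(A297V) array, 2 without the first, 1 without the first unmethylated CREB1(A297V) array, and 4 without any 1 of the 4 CEBPB(V285A) arrays. It was 2 from the authors' deposited table, 2 without spatial correction, 3 with signal over background, 3 without probes that hold other bZIP cores and 4 after normexp. The methylated CREB1(A297V) arrays use another spot layout, with 0% of probes at the position they have on the first array, so layout and group cannot be told apart.

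On methylated DNA the differences between the mutants were smaller. CEBPB(V285A) minus CREB1(A297V) had a median of 0.924, and 24 of 26 differences were positive. By limma 4 members were called higher on CEBPB(V285A), against 6.75% of all 8-mers, and 0 lower, against 5.49%, with 14 at an unadjusted p below 0.05. The 4 were CACGTGAT (1.78 ± 0.520, adjusted p = 0.0303), GCACGTGA (1.72 ± 0.523, adjusted p = 0.0374), CCACGTGG (1.57 ± 0.379, adjusted p = 0.0102) and CACGTGGG (1.17 ± 0.291, adjusted p = 0.0125). CACGTGAC, with the largest difference of 2.28 (95% interval 0.540 to 4.02), was not called (adjusted p = 0.0797). These groups share an identifier but not a spot layout, so protein and layout cannot be told apart. With only their 4 arrays in the fit, 15 members were called. Leaving out 1 array gave 0 calls without the first methylated CEBPB(V285A) array or the second methylated CREB1(A297V) array, 1 and 2 without their partners, and 9 and 11 without the first or the second CREB1 array. It was 0 with signal over background, 7 from the authors' deposited table, 9 without probes with other bZIP cores and 17 without division by the array's spread.

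The difference in methylation response was itself tested. The change on CEBPB(V285A) minus the change on CREB1(A297V) was negative for all 26 members, with a median of -1.63, against 0.0210 over all 8-mers. By limma 6 members were called lower, against 1.64% of all 8-mers, and 0 higher, against 1.42%, and 19 had an unadjusted p below 0.05. The 6 were CACGTGTA, CACGTGTG, ACACGTGT, ACACGTGC, CACGTGCA and CACGTGGC, with differences between -3.33 ± 0.761 and -2.26 ± 0.589. For CACGTGTA, a fall of 1.44 on CEBPB(V285A) that was not called (adjusted p = 0.105) stood against a rise of 1.89 on CREB1(A297V). The count of 6 became 0 without the first unmethylated CEBPB(V285A) array or any 1 of the 4 methylated arrays, 3 without the second unmethylated CEBPB(V285A) array or the first unmethylated CREB1(A297V) array, and 10 without the second. It was 1 without spatial correction, 3 after normexp or with signal over background, and 13 without division by the array's spread. The groups of this term differ in identifier and in spot layout, so neither can be told apart from it. Such calls were not limited to the E-box. Among other palindromes with a central ACGT, 11 of 26 8-mers with TACGTA, 7 of 26 with GACGTC and 0 of 26 with AACGTT were called lower. The counts were 7 of 48 for GACGTG, 6 of 48 for AACGTG and 5 of 48 for TACGTG.

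Extending the members by a base showed which contexts carried these values. All 128 9-mers with CACGTG were measured, on 7 to 10 probes each, and their values are descriptions. CACGTGACG, whose flank completes TGACG, gave 9.72 and 9.88 on CREB1 and 12.9 and 12.7 on CEBPB(V285A), while CACGTGACC gave 3.92 and 6.17, and 5.84 and 6.88. The high level of CACGTGAC thus differed by the third flanking base, without overlap between arrays. CACGTGTCA, in which a TGAC half-site lies on the other strand next to the E-box, had a mean Z of 9.77 ± 1.11 (SD, n = 2) on CREB1, 10.7 ± 1.71 on CEBPB(V285A) and 1.55 ± 0.433 on CREB1(A297V). The lowest mean on unmethylated CREB1(A297V) among the 9-mers named here was that of CACGTGCAT, at -2.14 ± 0.778.

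Of the 4 9-mers that begin with CACGTGTA, CACGTGTAA, whose reverse strand reads TTACACGTG, had the highest mean on methylated DNA for both mutants. On CREB1(A297V) it gave 2.22 and 3.26 on unmethylated and 9.52 and 10.9 on methylated DNA, and on CEBPB(V285A) 3.80 and 4.00, then 6.48 and 6.59. Its relative CACGTGTAC gave 0.645 and 1.13, then 0.564 and 0.461, on CREB1(A297V), and 6.33 and 3.05, then 2.59 and 2.21, on CEBPB(V285A). On CEBPB(V285A) the 2 9-mers thus differed in direction, without overlap between the methylated and unmethylated arrays, although they share the same CACGTGTA. On CREB1(A297V) CACGTGTAA rose, while CACGTGTAC changed little, with the closest arrays at 0.645 and 0.564. CACGTGATG gave 10.2 and 11.8 on methylated CREB1(A297V), against 1.10 and 7.66 on unmethylated DNA. Its arrays did not overlap, and the unmethylated pair stood far apart.

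Across probes, 296 held CACGTG and none held it more than once. The 82 with another of the 5 bZIP cores had a median Z of 4.69 on CREB1, 5.35 on CEBPB(V285A) and 1.27 on CREB1(A297V), against 2.94, 2.65 and 0.371 for the 214 without. The median of the 26 members changed little when probes with those cores were left out, to 3.27 on CREB1, 3.22 on CEBPB(V285A) and 0.608 on CREB1(A297V). The signal of the E-box members was therefore not limited to probes with a second listed core. The 22 probes that held TGACG reached medians of 8.89 on CREB1 and 11.5 on CEBPB(V285A).

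The place of the hexamer on the probe also went with its level. Among the 214 probes without another listed core, the 74 with CACGTG starting at base 1 to 10 of the 35 had a median Z of 4.20 on CREB1 and 3.68 on CEBPB(V285A). The 73 starting at base 11 to 20 had 3.38 and 3.35, and the 67 starting at base 21 to 30 had 1.61 and 1.33. All 4 arrays showed the lowest value for the last stretch. On methylated CEBPB(V285A) the values were 2.11, 1.23 and 0.794, in the same order. On CREB1(A297V) they were 0.775, 0.0496 and 0.382 on unmethylated and 0.746, 0.473 and 0.940 on methylated DNA, without this order.

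Single probes showed what an E-box score can contain. Probes were ranked only among the 214 E-box probes without a listed core. The highest of these on CREB1, with the hexamer at base 5, had a signal of 15074 and 23838 there, or 13.4 and 15.4 times the local median. On CEBPB(V285A) it had 20801 and 16618, and on CREB1(A297V) 3511 and 6562. The probe with the hexamer at base 22, second on CREB1, had 8967 and 7061 there, 21798 and 10682 on unmethylated CREB1(A297V), and 29540 and 29691 on methylated CREB1(A297V). Compared after their values were seen, both probes hold GTGACATCACG on opposite strands, and no other probe holds it. Within it, TGACATCA, measured on 35 probes, had a mean Z of 9.17 ± 2.19 (SD, n = 2) on CREB1, 12.0 ± 1.82 on CEBPB(V285A) and 4.52 ± 1.49 on CREB1(A297V), above TCACGTGA on each. It was not among the 5 listed cores, so these probes remain in the values without other cores.

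The CEBPB(V285A) probe with the hexamer at base 26 had a signal of 16520 and 16304 on that protein, 2764 and 2680 on CREB1, and 2745 and 2711 on CREB1(A297V). The one with the hexamer at base 6 had 6905 and 6471 on CEBPB(V285A), 2180 and 2356 on CREB1, and 1679 and 3035 on CREB1(A297V). In mean Z the probe with the hexamer at base 26 had 22.4 on CEBPB(V285A), 7.99 on CREB1 and 6.95 on CREB1(A297V). The probe with the hexamer at base 6 had 15.7, 5.95 and 3.04. Both thus also lay above the medians of the 214 probes on CREB1 (2.94) and CREB1(A297V) (0.371). Both pairs of CEBPB(V285A) arrays lay above all arrays of the other proteins on unmethylated DNA. The probes were picked for a high level on CEBPB(V285A) and lower levels on the other proteins, so this follows from the choice. Compared after their values were seen, both probes hold CGTGATATAA, and no other probe does. TGATATAA was taken as the 8-mer of this run with the highest mean Z on unmethylated CEBPB(V285A). On 34 probes, it had a mean Z of 6.57 ± 0.609 (SD, n = 2) on CEBPB(V285A), 0.478 ± 0.162 on CREB1 and 0.467 ± 0.0718 on CREB1(A297V). On methylated DNA it had 8.39 ± 0.288 and 0.620 ± 0.280, and again only the CEBPB(V285A) arrays exceeded a Z of 1.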

How the data were processed

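Each array has a deposited table which, per the file headers, holds the median signal intensity and median background intensity of 40330 spots with 35 variable bases. The authors also deposited an 8-mer Z-score matrix, a score used as an alternative (Spearman correlation with the scores computed here 0.783 to 0.953). Its formula and the scanner settings are not given in the sources used here. The log2 signal was lowered by the median of a window of 15 by 15 spots, the median was taken over the probes of each 8-mer (at least 8), and Z is its distance from the array's 8-mer median in units of the median absolute deviation times 1.4826. Median signal was 345 to 1857, or 1.79 to 5.10 times background, and 3 to 1569 probes per array were not above background. The number of arrays limits the precision.

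Differences were fitted over all 32896 8-mers and 10 arrays with limma 3.58.1 (R 4.3.3; eBayes with a variance trend, 5 residual degrees of freedom, two-sided) and called at a Benjamini-Hochberg adjusted p below 0.05, for 7 comparisons that share arrays. The fit was also run on simulated data with independent noise for each 8-mer. Real 8-mers share probes, so no result here rests on that run. The text names the 3 highest and 3 lowest called members of each comparison, the called palindromes, and others where a sentence needs them, 9-mers and probes included, which were chosen after their values were seen. Alternatives were the authors' scores, normexp (offset 50), signal over background, no spatial correction, no division by the spread, quantile normalization, no variance trend, a replicate block, dim probes left out, probes with other bZIP cores left out, and each array left out. Arrays carry identifiers, 1 shared by CREB1 and CREB1(A297V) on unmethylated DNA, 1 for CEBPB(V285A) on unmethylated DNA and 1 for the methylated groups. The members, lists and tests were chosen with earlier results of these data known.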

Additional observations from a re-analysis of the deposited data

Results flagged for a closer look

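For 6 members the change on methylation differed between CEBPB(V285A) and CREB1(A297V), as an interaction term tested in limma. The difference in Z, with its SE, was -3.33 ± 0.761 for CACGTGTA (adjusted p = 0.0254), -3.02 ± 0.557 for CACGTGTG (adjusted p = 0.0129) and -2.88 ± 0.778 for ACACGTGT (adjusted p = 0.0499). It was -2.65 ± 0.556 for ACACGTGC (adjusted p = 0.0209), -2.42 ± 0.554 for CACGTGCA (adjusted p = 0.0254) and -2.26 ± 0.589 for CACGTGGC (adjusted p = 0.0431). In each the methylated minus unmethylated difference was negative on CEBPB(V285A). None of the 6 was called when any 1 of the 4 methylated arrays was left out. Calls of this kind were also made for 11 of 26 8-mers with TACGTA and 7 of 26 with GACGTC, and for 0 of 26 with AACGTT.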

How the results depend on the processing

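For the calls of CREB1(A297V) below CREB1 (26) and of CEBPB(V285A) above CREB1(A297V) on unmethylated DNA (24), every alternative gave 24 to 26, with 26 and 21 to 25 when single arrays were left out. The other counts moved, and the cause was not tested. For CEBPB(V285A) against CREB1 (1 call) the authors' scores, signal over background, no spatial correction and leaving out dim probes gave 0, quantile normalization 2, no division by the spread 6 and normexp 7. Single arrays left out gave 0 to 2. Methylation on CEBPB(V285A) (14) gave 9, 5, 8 and 3 under the authors' scores, normexp, signal over background and no spatial correction, and 0 to 17 with single arrays left out. Methylation on CREB1(A297V) (7) gave 2, 4, 3 and 2 in the same order, 3 without probes with other cores, and 0 to 8 with single arrays left out. The mutants on methylated DNA (4) gave 7 with the authors' scores, 0 with signal over background, 17 without division by the spread, 9 without other cores and 15 with only the arrays of 1 identifier, and 0 to 11 with single arrays left out. The difference in methylation response (6) gave 3 with normexp or signal over background, 1 without spatial correction, 13 without division by the spread and 0 to 10 with single arrays left out. The median difference changed sign for CEBPB(V285A) against CREB1 with the authors' scores (0.182), signal over background (0.138), no division by the spread (0.107) and without the second CREB1 array (0.363), where single arrays left out gave -0.698 to 0.363. For methylation on CREB1(A297V) it did so without spatial correction (-0.00534), without dim probes (-0.0845) and without the first unmethylated CREB1(A297V) array (-0.0723), with a range of -0.0723 to 0.478 over single arrays. After normexp the higher share of all calls went from 59.2% to 31.7% for CEBPB(V285A) against CREB1 and from 46.4% to 85.5% for the response, and the median difference over all 8-mers from 0.00563 to -0.112 and from 0.0210 to 0.172. Same-numbered arrays deviated together at correlations of -0.213 to 0.333, the highest between the unmethylated arrays of CREB1 and CREB1(A297V), which share an identifier. These values do not settle whether the numbers pair the arrays. A replicate block gave 1, 26, 25, 14, 7, 5 and 6 calls in the order above with the mutants on methylated DNA before the response.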
